A study of Mus musculus with 35 samples.

Results

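Regenerating livers of old mice 38 h after partial hepatectomy (PH) were compared with those of young mice 24 h after PH. Old livers enter DNA replication later than young ones, and the comparison asks which genes still differ when an old liver at a later hour is set against a young liver at an earlier one. The groups were taken from the sample titles. They hold 3 arrays of old livers and 3 of young livers, 6 of the 35 arrays in the series.

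The series measured liver RNA of male CB6F1 hybrid mice on Affymetrix moe430_2 oligonucleotide arrays before surgery and 24, 38 and 48 h after it. Old mice were 25 to 27 months of age and came from the National Institute on Aging, while young mice were 5 to 6 months of age and came from Jackson Laboratories. In PH 70% of the liver was resected, and in sham surgery the liver was handled and left whole, in both cases under avertin and isoflurane. The groups used below are old PH 38 h (3 arrays) against young PH 24 h (3), untreated old (3) against untreated young (3), old sham 38 h (2) against young sham 24 h (2), and, for the same hour, old PH 24 h (3) and young PH 38 h (3). The labels name no engineered allele and no drug other than the anaesthetics. Whether the replicates were separate animals is not said in the labels, and a p-value covers only the variation among the samples at hand. Age, the supplier of the mice and the hours since surgery all change together in the comparison and cannot be told apart. The time of day at collection is not given in the labels, and it may differ between the groups as well.

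After PH the remaining hepatocytes leave quiescence together, pass through a first round of DNA synthesis and divide while the liver keeps up its metabolic work. Early transcription factors and cytokine signals prime the cells, cyclin D1 carries them past G1, and the E2F and FOXM1 programmes then drive S phase and mitosis. In mice the first hepatocyte DNA synthesis comes later and is smaller at old age, and the circadian clock gates the entry into mitosis.

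All values are log2 RMA signals (robust multi-array average), where 1 unit is a 2-fold difference, and each difference is old minus young. For 18193 genes, 1 probe set each, limma was fitted to all 35 arrays, and a gene passed at an adjusted p under 0.05 (Benjamini-Hochberg over all genes). The arrays were those of liver: Alb, the plasma protein albumin, stood at 14.86, 14.84 and 14.85 on the old PH 38 h arrays, against 14.88, 14.9 and 14.9 on the young PH 24 h arrays. The mean level of 14 hepatocyte markers ran from 14.11 to 14.34 on the old arrays and from 14.34 to 14.37 on the young ones, and none of the 14 passed. Array medians were 8.05 to 8.08 in old PH 38 h and 8.04 to 8.08 in young PH 24 h. Old PH 38 h replicate 3 stood apart: over all genes it correlated at 0.945 and 0.947 with the other old arrays, which correlated at 0.993 with each other, and young PH 24 h pairs ran from 0.992 to 0.995. For many of the lists and calls below, the value without this array is given as well.

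In old livers at 38 h, a lipid droplet gene (Cidea), a peroxisomal fatty acid carrier (Abcd2) and a cholesterol synthesis gene (Hsd17b7) were among those that rose against young livers at 24 h. Among those that fell were single genes of amino acid (Aass, Otc), bile acid (Cyp8b1) and ethanolamine (Etnppl) metabolism. The prolyl hydroxylase Egln3 and the chaperones Hsph1 and Hspe1 fell as well. Of the genes named here, Abcd2, Cyp8b1, Otc and Hsph1 did not pass without old replicate 3. In limma 255 genes passed, 1.4% of those tested. Of these, 83 were higher in old PH 38 h (0.456%) and 172 were lower (0.945%), with median differences of 0.47 and -0.63 among them, while the median over all 18193 genes was 0.03. All 83 higher genes and 170 of the 172 lower genes had old arrays that did not overlap the young arrays, as 18.8% of all genes did (10.1% higher and 8.72% lower). Differences of at least 2-fold were few: 34 genes passed at that size (0.187%), 9 higher (0.0495%) and 25 lower (0.137%). Since RNA came from whole liver, fewer cells of a type and less RNA per cell cannot be told apart in any of these values.

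The largest rise was that of Cidea, a lipid droplet protein that enlarges droplets. Cidea read 9.62, 9.31 and 9.99 in old PH 38 h, against 8.37, 6.45 and 6.35 in young PH 24 h, a difference of 2.59 ± 0.50 (SE, limma adjusted p = 0.0117). Each old array lay above each young array, but young replicate 1 stood well above the other young arrays. The same young array was also high on 8 adipose markers, with a mean of 0.88 above the young group mean, against -0.4 and -0.48 on the other young arrays and -0.31, -0.57 and 0.33 on the old arrays. None of the 8 markers passed, their mean level ran from 8.5 to 9.41 in old PH 38 h and from 8.59 to 9.96 in young PH 24 h, no value on this scale is 0, and their part in the Cidea values was not tested.

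Abcd2, which imports very long chain fatty acids into peroxisomes, read 7.91, 7.95 and 8.58 in old livers, against 6.39, 6.58 and 6.28 in young livers (1.73 ± 0.36, adjusted p = 0.0152). The groups lay far apart, with the highest value on old replicate 3. The 4 Abcd2 probe sets ran from 0 to 1.73, and 1 of them passed. Noct, the rhythmically expressed enzyme nocturnin, read 11.9, 12.11 and 11.55 in old livers and 10.85, 10.63 and 9.61 in young livers (1.49 ± 0.31, adjusted p = 0.0152). Old replicates 1 and 2 were the highest for this gene and young replicate 3 the lowest. In untreated livers Noct already differed by 1.40 ± 0.31 (limma adjusted p = 0.0584), and its response difference was 0.09 ± 0.44. Tubb6, a beta tubulin, read 11.3, 10.37 and 12.13 in old livers and 10.2, 9.51 and 9.29 in young livers (1.60 ± 0.39, adjusted p = 0.0397). Its groups nearly touch, and another Tubb6 probe set gave -0.05.

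Dntt, the template-free DNA polymerase known from lymphocyte precursors, had tight groups on both sides. It read 8.09, 8.28 and 8.25 in old livers, against 7.24, 7.08 and 7.31 in young livers (1.00 ± 0.17, adjusted p = 0.00414). Wfdc2, a secreted protease inhibitor family member, read 9.19, 9.63 and 9.81 in old livers and 8.67, 8.42 and 8.54 in young livers (1.00 ± 0.16, adjusted p = 0.00219). Prelid2, of the PRELI family of mitochondrial lipid carriers, rose by 1.23 ± 0.23, the actin-binding protein Nebl by 1.11 ± 0.22, and Ifi27l2b, of the interferon-induced Ifi27 family, by 1.06 ± 0.27. The groups of each of these genes did not overlap. Ifi27l2b (limma adjusted p = 0.0494) lost its call when any 1 of the 6 arrays was left out. The probe sets of Prelid2, Nebl and Dntt ran down to 0.16, 0.1 and 0.39, and 1 of each gene passed.

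The largest fall was that of Etnppl, the lyase that breaks down phosphoethanolamine and a gene of the periportal zone. Etnppl read 9.72, 9.32 and 7.41 in old PH 38 h, against 12.21, 12 and 11.09 in young PH 24 h, a difference of -2.95 ± 0.53 (SE, limma adjusted p = 0.00952). All old arrays lay below all young ones, with replicate 3 the lowest of the old. Of the 2 Etnppl probe sets, at -2.95 and -0.56, 1 passed. Cyp8b1, the sterol hydroxylase that makes cholic acid, read 9.62, 10.09 and 8.35 in old livers and 12, 10.83 and 12.52 in young livers (-2.43 ± 0.61, adjusted p = 0.0438). Young replicate 2 stood closest to the old arrays. Slc16a10, a carrier of aromatic amino acids, read 9.96, 10.14 and 8.11 in old livers, against 11.15, 11.32 and 11.27 in young livers (-1.85 ± 0.46, adjusted p = 0.0397). Its young arrays were close together and the old spread came from replicate 3. The 4 Slc16a10 probe sets ran from -1.85 to -0.06, and 1 of them passed.

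Egln3, an oxygen-dependent prolyl hydroxylase that marks hypoxia-inducible factors for decay, had one of the lowest p-values of the comparison. It read 9.88, 9.28 and 9.37 in old livers, against 11.48, 11.79 and 10.7 in young livers (-1.82 ± 0.24, adjusted p = 0.000481). Both of its probe sets passed, with -1.82 and -1.40. Onecut1, the liver transcription factor HNF6, read 8.0, 8.51 and 7.88 in old livers and 8.84, 9.78 and 10.13 in young livers (-1.45 ± 0.30, adjusted p = 0.0152), with young replicate 1 near the old values and a second probe set at -2.16. Slc39a4, a zinc importer, fell by 1.56 ± 0.31, the membrane carbonic anhydrase Car14 by 1.38 ± 0.24, the transcription regulator Tsc22d1 by 1.39 ± 0.36 and 9130409I23Rik, a gene known by its clone name, by 2.37 ± 0.50, each with groups apart.

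**Figure D1:**
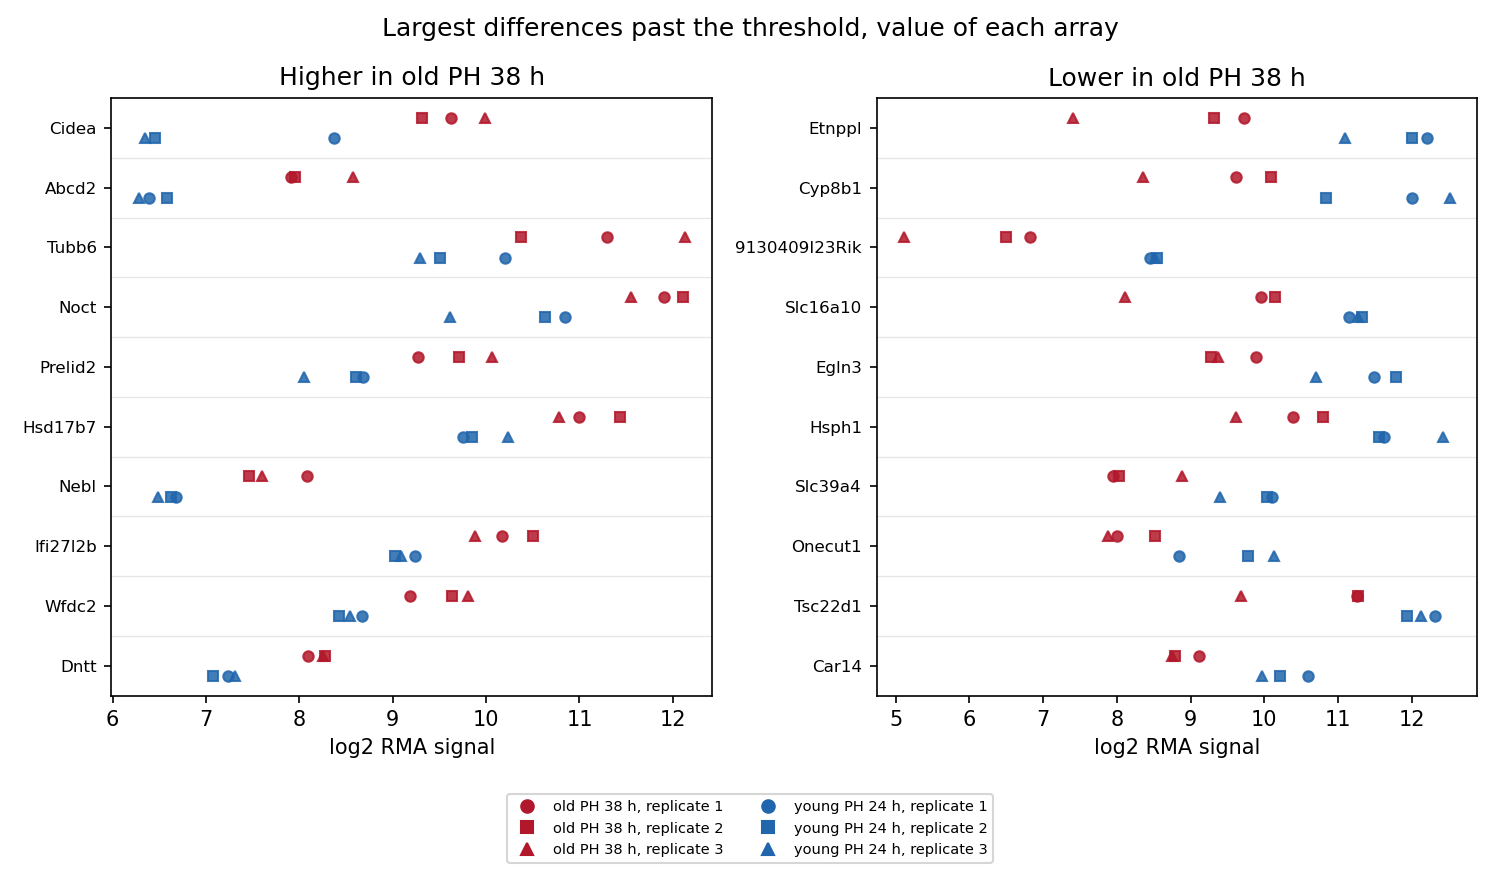
Log2 RMA signal of each array for the 10 genes with the largest rises (left) and the 10 with the largest falls (right) among genes that passed with groups apart, with old PH 38 h in red and young PH 24 h in blue and 1 symbol per replicate. Red points lie right of all blue points for the rises and left of them for the falls, and old replicate 3 is the lowest old point for Etnppl, Cyp8b1, 9130409I23Rik and Slc16a10.

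The calls depended on the arrays fitted. With the spread estimated from the 6 arrays alone no gene passed in limma, with 1611 at an unadjusted p under 0.05 and a smallest adjusted p of 0.464, so the 255 calls rest on the spread pooled over all 35 arrays. Of the 34 genes that the naming rule picked and that passed, 28 lost the call when some 1 of the 6 arrays was left out, and 6 kept it in every case: Wfdc2, Dntt, Egln3, Gtf2e1, Zfp931 and Aass. Leaving out old replicate 3 alone took the call from 15 of the 34: Abcd2, Tubb6, Ifi27l2b, Cyp8b1, 9130409I23Rik, Slc16a10, Hsph1, Onecut1, Tsc22d1, Gm7969, Atf4, Rrs1, Clock, Cyp3a11 and Otc. Without young replicate 1, 2 or 3, the number lost was 24, 18 or 21, and without old replicate 1 or 2 it was 8 or 5. Hsd17b7, Ifi27l2b, Dmrta1 and Cdh1 were lost in each of these fits, and Cidea without young replicate 2 or 3. Of the 34, 19 had more than 1 probe set, and for 14 of these all probe sets pointed one way. For only 9 of the 19 did another probe set pass as well. Over all genes the count was 33, 101 or 63 without young PH 24 h replicate 1, 2 or 3, and 283, 811 or 144 without old PH 38 h replicate 1, 2 or 3. Without old replicate 3, when 0.792% of genes passed, 0.368% higher and 0.423% lower, 82 of the 255 calls were kept and all 255 kept their sign. With each of the 6 arrays left out in turn, 19 calls were kept throughout, 4 higher and 15 lower.

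Those 19 genes, a list set by these values and so only described, include several enzymes. Aass, the first enzyme of lysine breakdown, read 11.56, 11.62 and 10.86 in old PH 38 h and 12.56, 12.58 and 12.49 in young PH 24 h (-1.19 ± 0.17, limma adjusted p = 0.000633). Idh3a, a subunit of the tricarboxylic acid cycle's isocitrate dehydrogenase, read 10.55, 10.4 and 10.54 in old livers and 11.43, 11.39 and 10.88 in young livers (-0.74 ± 0.11). Eif4a2, a translation initiation helicase, read 11.24, 11.47 and 10.95 in old livers and 11.99, 12.23 and 12.13 in young livers (-0.90 ± 0.13). The groups of these genes lay apart, Idh3a's young replicate 3 being nearest to the old arrays. Ppp1cb, a catalytic subunit of protein phosphatase 1, fell by 0.70, Ndufab1, the mitochondrial acyl carrier protein, by 0.60, and Ttc39b, a protein tied to liver lipid handling in mice, by 1.18. Klhdc3, an adaptor of a ubiquitin ligase, rose by 0.46, with 12.37, 12.28 and 12.52 in old livers and 11.95, 11.9 and 11.95 in young livers.

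The cell cycle is where the hours were set to match. None of 37 S phase genes passed in either direction between old PH 38 h and young PH 24 h, and their median difference was -0.01, and 0.32 with no call without old replicate 3. Relative to the young mean the list averaged 0.53, 0.11 and -0.74 on the old arrays, against 0.14, 0.21 and -0.35 on the young arrays. Against young livers of the same hour, old livers were lower: 15 of the 37 fell at 24 h (median -0.67, with 2.87% of all genes lower) and 21 of the 37 fell at 38 h (median -1.07, with 1.51% of all genes lower). These comparisons use the same young 24 h or old 38 h arrays and are set side by side only. Over all genes the 366 calls at 38 h were 49 without old replicate 3. The S phase genes called in that comparison were not counted without it. Set against untreated livers of their own age, 25 of the 37 rose in old livers at 38 h (median 0.71, with 21.9% of all genes higher) and 21 of the 37 rose in young livers at 24 h (median 0.65, with 7.82% of all genes higher).

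The matching was not even between arrays. Pcna, the sliding clamp of DNA polymerase, read 12.72, 11.96 and 11.5 in old PH 38 h and 12.3, 12.14 and 11.38 in young PH 24 h (0.12 ± 0.23, adjusted p = 0.812), so its groups overlapped. Fen1, the flap endonuclease, read 11.86, 11.67 and 11.76 in old livers and 11.38, 11.66 and 11.3 in young livers (0.32 ± 0.12, adjusted p = 0.159). Old replicate 1 exceeded all young arrays for 26 of the 37 S phase genes and old replicate 2 for 11, whereas old replicate 3 lay below all young arrays for 24. Over all genes, 35.8%, 29.6% and 41.9% exceeded the young arrays on old replicates 1, 2 and 3, and 30.3% lay below them on replicate 3.

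Mitosis genes spread further. None of 39 genes of mitosis and cytokinesis passed, and their median difference was 0.51. The difference was positive for 37 of the 39, and for 10494 of all 18193 genes. Cdk1, the kinase that drives mitotic entry, read 11.33, 9.47 and 8.19 in old PH 38 h, against 9.81, 9.35 and 8.68 in young PH 24 h (0.38 ± 0.45, adjusted p = 0.678). Mki67, the proliferation marker Ki-67, read 10, 8.04 and 6.14 in old livers and 8.05, 7.48 and 6.65 in young livers (0.67 ± 0.59, adjusted p = 0.568). On both genes old replicate 1 was the highest of the 6 arrays and old replicate 3 the lowest. Replicate 1 exceeded all young arrays for 39 of the 39 genes and replicate 2 for 18, while replicate 3 lay below all of them for 26. Without replicate 3 the list's median was 1.03 and 3 members passed as higher, against 0.368% of all genes: the spindle checkpoint kinase Ttk, the centromeric histone Cenpa and the spindle protein Hmmr, named after their values were seen. At the same hour of 24 h the list's median was -0.43, with 2 members and 2.87% of all genes lower. At 38 h it was -1.33, with 24 members and 1.51% of all genes lower, not counted without old replicate 3. Against untreated livers of their own age, 26 of the 39 rose in old livers at 38 h (median 1.03, with 21.9% of all genes higher). In young livers at 24 h, 5 of the 39 rose (median 0.6, with 7.82% of all genes higher). Relative to those untreated livers the list averaged 2.14, 0.85 and 0.02 on old replicates 1, 2 and 3. On the young arrays it averaged 0.88, 0.66 and 0.37.

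The other cell cycle genes gave no call. None of 30 genes of G1 cyclins, CDK inhibitors and E2F factors passed (median -0.06). Cyclin D1, Ccnd1, read 11.6, 11.16 and 8.8 in old livers and 11.33, 11.19 and 10.47 in young livers (-0.48 ± 0.48), with old replicate 3 far below the rest. Cyclin E1, Ccne1, read 9.49, 9.45 and 9.67 in old livers and 8.81, 9.14 and 8.8 in young livers (0.62 ± 0.20, adjusted p = 0.116), where the groups did not overlap. Cdkn1a, the CDK inhibitor p21, read 10.97, 10.04 and 12.9 in old livers and 10.37, 9.96 and 9.98 in young livers (1.20 ± 0.41, adjusted p = 0.128), led by old replicate 3. Differences were 0.56 ± 0.36 for cyclin A2 (Ccna2), 1.02 ± 0.53 for the ribonucleotide reductase subunit Rrm2 and -0.11 ± 0.13 for Foxm1. Cyclin B1 was not analysed here. Of 18 p53 targets, none passed (median 0.19).

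**Figure D2:**
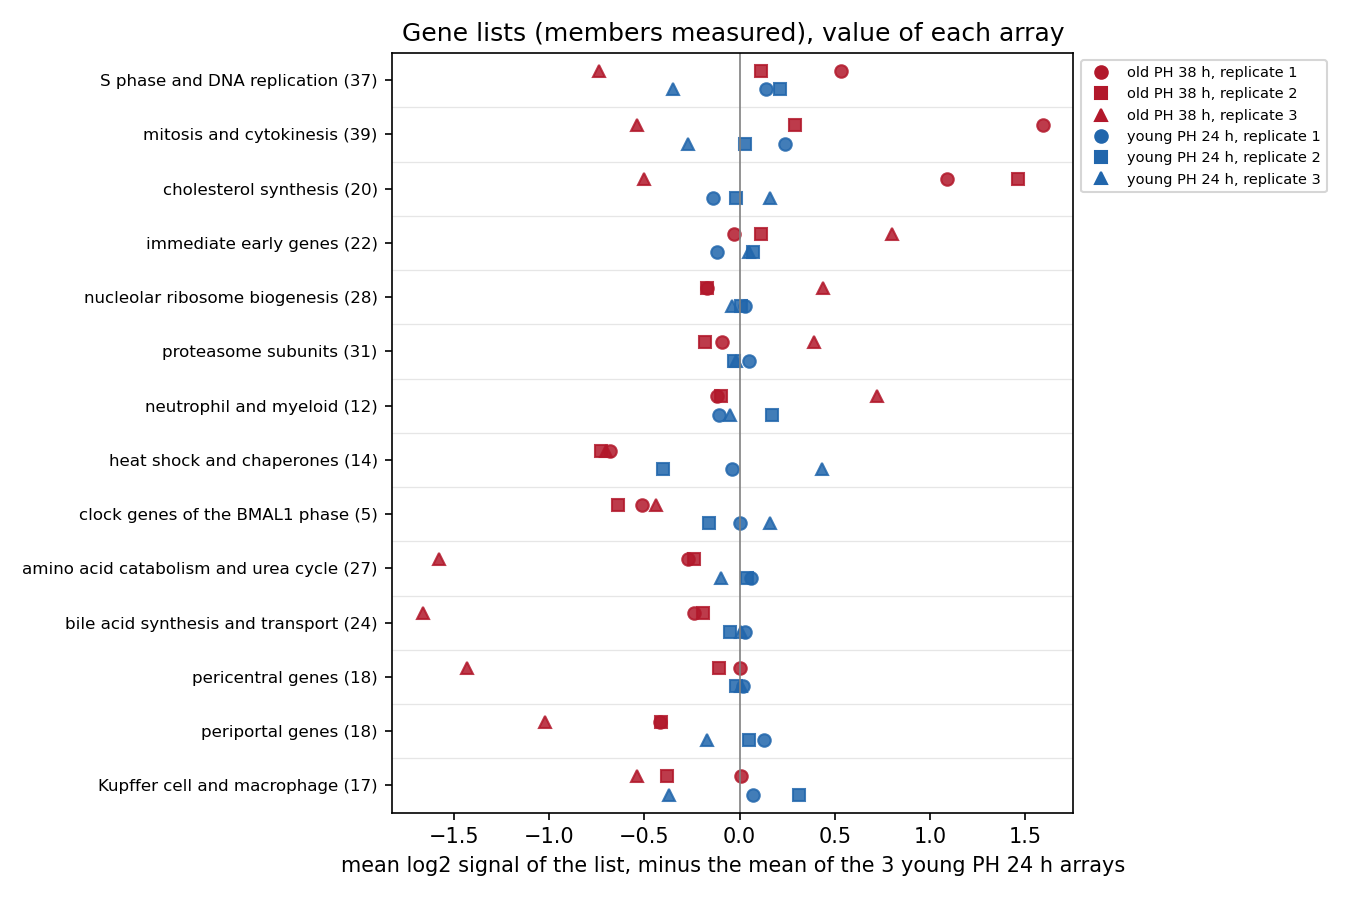
Mean log2 signal of 14 gene lists on each array, minus the mean of the young PH 24 h arrays, with old PH 38 h in red and young PH 24 h in blue, 1 symbol per replicate and the number of members measured in brackets. Old replicate 1 stands at 1.59 for mitosis and replicate 3 at -0.54. For heat shock genes the old arrays lie together at -0.68, -0.73 and -0.7.

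Cholesterol synthesis genes were high on 2 old arrays. Of 20 genes 1 passed, Hsd17b7, a reductase of the late pathway, and the median difference was 0.75. Hsd17b7 read 11.0, 11.43 and 10.78 in old PH 38 h, against 9.75, 9.85 and 10.24 in young PH 24 h (1.12 ± 0.27, limma adjusted p = 0.0332). Its groups lay apart, also on replicate 3, and its 4 probe sets ran from -0.24 to 1.12. Hsd17b7 lost its call when any single array of the groups other than old replicate 3 was left out. Old replicates 1 and 2 exceeded all young arrays for 20 of the 20 genes, while replicate 3 did so for 3 and lay below all of them for 12. Of all genes, 35.8%, 29.6% and 41.9% exceeded the young arrays on old replicates 1, 2 and 3, and 30.3% lay below on replicate 3. Relative to the young mean, the list averaged 1.09, 1.46 and -0.5 on the old arrays, against -0.14, -0.02 and 0.16 on the young arrays.

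Without replicate 3 the median of the cholesterol list was 1.43, and 4 members passed as higher: Hmgcs1, the synthase that begins the pathway's committed part (1.83 ± 0.44), the squalene synthase Fdft1 (2.09 ± 0.43), the sterol dehydrogenase Nsdhl (1.65 ± 0.38) and Hsd17b7 (1.27 ± 0.29), the first 3 named after their values were seen. With all arrays Hmgcs1 read 13.96, 14.11 and 11.87 in old livers and 12.07, 12.05 and 12.48 in young livers, so 2 old arrays were the highest and the remaining one the lowest of the 6. Set against untreated livers of their own age, 4 of the 20 fell in old livers at 38 h (median -0.32, with 16.6% of all genes lower). In young livers at 24 h, 3 of the 20 fell (median -0.89, with 9.56% of all genes lower). Relative to those untreated livers the list averaged 0.12, 0.49 and -1.47 on old replicates 1, 2 and 3. On the young arrays it averaged -0.97, -0.85 and -0.67.

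**Figure D3:**
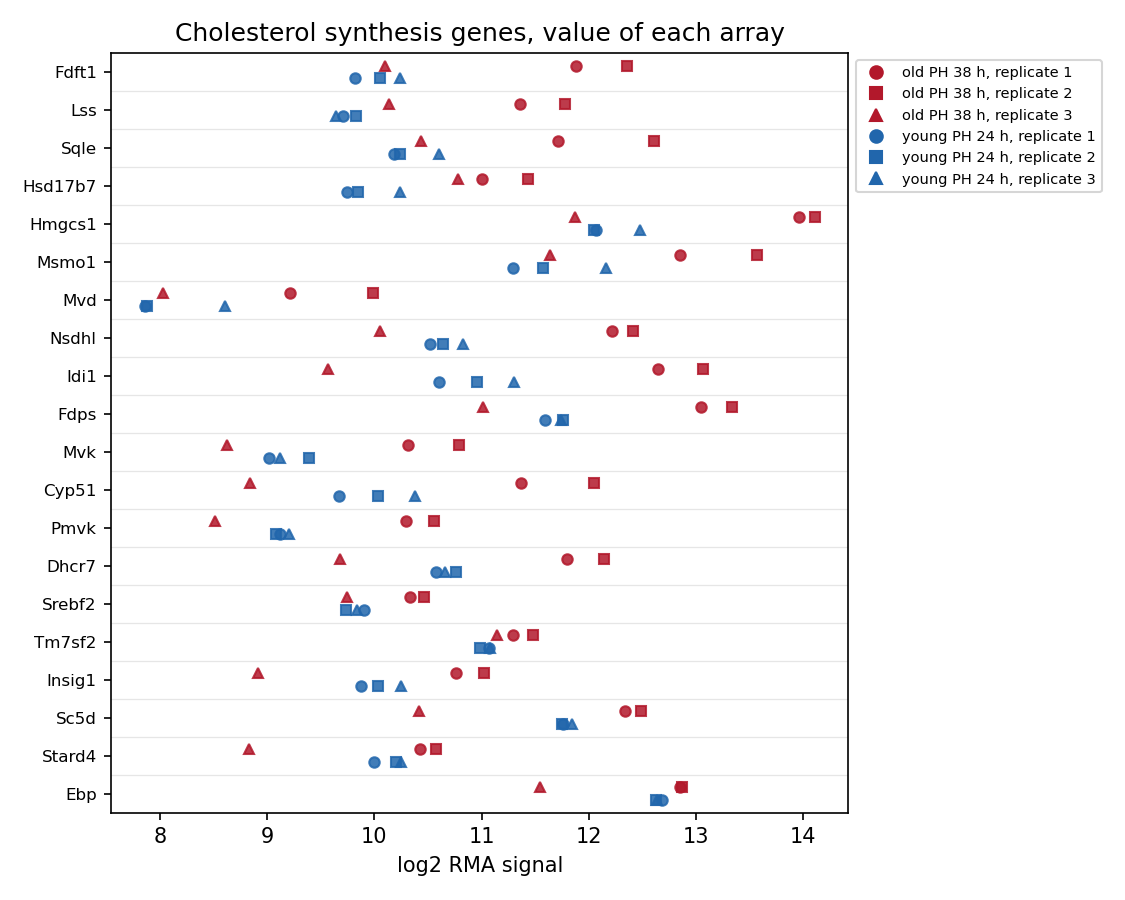
Log2 RMA signal of each array for the 20 cholesterol synthesis genes, with old PH 38 h in red and young PH 24 h in blue, ordered by the difference between group means. Old replicates 1 and 2 lie right of all blue points in every row, and old replicate 3 (red triangles) does so in 3 rows.

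Of 16 genes of lipid droplets and lipid uptake, Cidea rose and none fell (median 0.29). None of 23 genes of fatty acid and triglyceride synthesis passed (median 0.02). The desaturase Scd1 read 13.36, 13.55 and 14.14 in old livers and 13.65, 13.38 and 13.2 in young livers. None of 27 genes of fatty acid oxidation passed (median -0.07), and the fatty acid binding protein Fabp1 differed by -0.29 ± 0.21.

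Of 27 genes of amino acid breakdown and the urea cycle, Aass and Otc fell and none rose, and the median was -0.73. Otc, the urea cycle's ornithine transcarbamylase, read 12.05, 12 and 11.13 in old PH 38 h, against 12.36, 12.49 and 12.52 in young PH 24 h (-0.73 ± 0.17, adjusted p = 0.0332). All old arrays were below all young ones. Relative to the young mean, this list averaged -0.27, -0.24 and -1.58 on the old arrays, against 0.06, 0.04 and -0.1 on the young arrays, and without replicate 3 its median was -0.24 with 1 member lower. Of 24 genes of bile acid synthesis and transport, Cyp8b1 fell (median -0.59, and -0.07 with no call without replicate 3). Cyp7a1, the rate-limiting enzyme of bile acid synthesis, read 8.68, 9.0 and 7.76 in old livers and 9.94, 9.54 and 9.36 in young livers (-1.13 ± 0.65, adjusted p = 0.346).

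Of 31 cytochrome P450 and drug metabolism genes, Cyp3a11 fell and none rose (median -0.31, and -0.08 without replicate 3). Without that array Cyp3a11 did not pass and 1 member passed as higher, Cyp2b9 (1.69 ± 0.37, adjusted p = 0.0405), named after its values were seen. Cyp3a11, a drug-oxidising P450, read 14.08, 13.7 and 13.67 in old livers and 14.19, 14.17 and 14.12 in young livers (-0.34 ± 0.09, adjusted p = 0.0494). Both zones of the liver lobule had medians below 0. Of 18 periportal genes, Etnppl and Cdh1 fell (median -0.48, and -0.17 with 2 members lower without replicate 3), and of 18 pericentral genes none passed (median -0.47, and -0.03 without replicate 3). Cdh1, the adhesion protein E-cadherin, read 7.28, 7.06 and 9.54 in old livers and 10.08, 9.67 and 9.5 in young livers (-1.79 ± 0.44, adjusted p = 0.0393), so replicate 3 lay among the young arrays. Without that array the Cdh1 difference was -2.58 ± 0.34 (adjusted p = 0.00131). The pericentral Cyp2e1, an ethanol-oxidising P450, differed by -0.18 ± 0.11, and Oat, an ornithine aminotransferase, read 14.01, 13.83 and 11.15 in old livers and 14.09, 14.18 and 14.2 in young livers.

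Of 20 gluconeogenesis genes none passed (median -0.31), and of 31 respiratory chain subunits none passed (median -0.15). The respiratory chain genes were low on each old array: 17, 25 and 23 of the 31 lay below all young arrays on old replicates 1, 2 and 3, as 28.1%, 29.9% and 30.3% of all genes did. Cox7a2, a subunit of cytochrome oxidase, read 13.66, 13.55 and 13.39 in old livers and 13.83, 13.82 and 13.77 in young livers (-0.28 ± 0.08, adjusted p = 0.0673). Among 22 liver transcription factors only Onecut1 passed (median -0.15). Hnf4a, the main hepatocyte identity factor, differed by -0.08 ± 0.08, Cebpa, which restrains hepatocyte growth, by -0.25 ± 0.17, and Cebpb by -0.13 ± 0.12. Of 20 chromatin partners of C/EBP and retinoblastoma proteins none passed (median -0.08). The chromatin remodeller Smarca2 read 8.97, 9.52 and 7.23 in old livers and 9.66, 9.7 and 9.94 in young livers (-1.19 ± 0.36, adjusted p = 0.089), with replicate 3 lowest.

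Heat shock and chaperone genes were lower on all 3 old arrays. Of 14 genes, Hsph1 and Hspe1 fell and none rose, with a median of -0.58. Hsph1, a large co-chaperone that recharges HSP70 proteins, read 10.39, 10.79 and 9.61 in old PH 38 h, against 11.62, 11.55 and 12.42 in young PH 24 h (-1.60 ± 0.41, limma adjusted p = 0.0495). Hspe1, the mitochondrial co-chaperonin, read 12.6, 12.68 and 12.34 in old livers and 13.23, 13.1 and 13.13 in young livers (-0.61 ± 0.11, adjusted p = 0.00952). Both genes had groups apart, and both probe sets of each passed. Without old replicate 3 Hspe1 still passed (-0.51 ± 0.12, adjusted p = 0.0438), Hsph1 did not, and the list's median was -0.52. No member exceeded all young arrays on any old array, and 12, 12 and 10 of the 14 lay below all of them on replicates 1, 2 and 3. Of all genes, 28.1%, 29.9% and 30.3% lay below the young arrays on these replicates. The young arrays differed among themselves more: the list averaged -0.68, -0.73 and -0.7 on the old arrays relative to the young mean, against -0.04, -0.4 and 0.43 on the young arrays.

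The stress-inducible Hspa1b, named after its values were seen, read 9.49, 9.21 and 9.56 in old livers and 11.01, 9.69 and 13.24 in young livers (-1.89 ± 0.75, adjusted p = 0.181), its spread coming from the young arrays. Its near-identical copy Hspa1a can share probes with it, so the pair is uncertain. Among 22 genes of the unfolded protein response the median was -0.27 (-0.12 with no call without replicate 3) and 1 passed, Atf4, the transcription factor of the integrated stress response. Atf4 rose to 11.86, 11.92 and 12.33 in old livers, against 11.51, 11.46 and 11.44 in young livers (0.56 ± 0.12, adjusted p = 0.0218). In untreated livers the heat shock list had a median of -0.14 and no call, with 0.236% of all genes called there. Hsph1 differed by -0.72 ± 0.41 in untreated and by -0.91 ± 0.50 in sham livers, and Hspe1 by -0.07 ± 0.11 and 0.12 ± 0.13. None of these differences passed.

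The promoters of the passing heat shock genes are shown because heat shock factors are known to bind an element, GAANNTTC, which reads the same on both strands. The RefSeq windows run from 250 bases before to 50 after the gene's start (build GRCm38.p6), at chr5:149636287-149636586 on the minus strand for Hsph1 and chr1:55087898-55088197 on the plus strand for Hspe1, 5′ to 3′, with the element in capitals.
Hsph1: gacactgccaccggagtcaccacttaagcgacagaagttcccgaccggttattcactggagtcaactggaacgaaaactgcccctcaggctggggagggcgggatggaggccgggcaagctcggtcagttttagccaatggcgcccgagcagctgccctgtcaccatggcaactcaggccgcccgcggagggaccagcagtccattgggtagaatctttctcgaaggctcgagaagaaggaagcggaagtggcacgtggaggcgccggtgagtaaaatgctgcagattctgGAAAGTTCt
Hspe1: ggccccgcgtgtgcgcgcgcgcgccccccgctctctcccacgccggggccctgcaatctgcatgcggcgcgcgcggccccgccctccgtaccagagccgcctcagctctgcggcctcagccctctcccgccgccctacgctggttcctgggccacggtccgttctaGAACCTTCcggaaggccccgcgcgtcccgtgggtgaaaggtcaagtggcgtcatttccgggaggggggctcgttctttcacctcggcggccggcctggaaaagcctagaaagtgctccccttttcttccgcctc
Of the 14 measured genes 10 had a promoter in the table, and 8 of the 10 had the element in at least 1 window (9 of 15 windows), while 7.86% of all 32851 promoters held it. The 10 genes include Bag3, which held the element and differed by 0.05. The window of Hspd1, the partner of Hspe1, overlaps that of Hspe1 on the other strand, and Hspd1 differed by -0.28. A match of these letters is a description and not a site of binding.

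Clock genes are given because the groups differ in hours since surgery. Of 5 genes that peak with BMAL1, 1 fell and none rose (median -0.47). Clock, the partner of BMAL1, read 8.31, 8.37 and 8.04 in old PH 38 h, against 9.17, 9.06 and 9.33 in young PH 24 h (-0.95 ± 0.20, limma adjusted p = 0.0152). Arntl, which encodes BMAL1, read 8.56, 8.13 and 7.72 in old livers and 9.17, 8.75 and 9.27 in young livers (-0.93 ± 0.36, adjusted p = 0.174). For both genes the old arrays lay below the young arrays. The 4 probe sets of Clock ran from -0.95 to -0.13. Without old replicate 3 Clock did not pass, and the list's median was -0.68.

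Of 14 genes of the opposite phase, led by the PER and DBP genes, none passed (median 0.27). Dbp, a clock output factor, read 8.91, 9.93 and 9.1 in old livers and 9.0, 9.23 and 7.79 in young livers (0.64 ± 0.70), and Per2 differed by 0.22 ± 0.15. After sham surgery, in old livers at 38 h against young livers at 24 h, the median of the BMAL1 phase genes was 0.68, and 7 genes of all passed (0.0385%). The time of day of surgery and collection is not given in the labels.

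Signals of early response and inflammation gave few calls. None of 22 immediate early genes passed (median 0.23, and 0.03 without replicate 3), and the list averaged -0.03, 0.11 and 0.8 on old replicates 1, 2 and 3, against -0.12, 0.07 and 0.05 on the young arrays. Of 28 nucleolar ribosome biogenesis genes, Rrs1, a factor of large subunit assembly, fell (-0.50 ± 0.13, adjusted p = 0.0474), with 9.91, 10.18 and 10.26 in old livers and 10.54, 10.66 and 10.67 in young livers. On that list 18, 20 and 2 of the 28 lay below all young arrays on old replicates 1, 2 and 3, and 23 lay above them on replicate 3. Of all genes, 28.1%, 29.9% and 30.3% lay below on these replicates, and 41.9% lay above on replicate 3. None of 31 proteasome subunits passed (median 0.07), with 19, 26 and 3 of the 31 below all young arrays on old replicates 1, 2 and 3, and 26 above them on replicate 3. Without replicate 3 the proteasome median was -0.10 and 1 member passed as lower, Psma4 (-0.35 ± 0.08, adjusted p = 0.0337), named after its values were seen. None of 27 acute phase genes, 31 interferon-induced genes, 24 cytokines and chemokines, 19 antioxidant genes, 15 fetal liver genes, 18 genes of the senescence-associated secretome or 26 sex-biased liver genes passed. The chemokine Cxcl1 read 12.13, 12.2 and 13.28 in old livers and 11.13, 11.22 and 11.92 in young livers (1.11 ± 0.46, adjusted p = 0.197), and the stress-induced binding protein Igfbp1 differed by 0.31 ± 0.64.

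Markers of other liver cells varied between single arrays. On 12 neutrophil and myeloid markers old replicate 3 stood at 0.72 relative to the young mean, against -0.12 and -0.1 on the other old arrays and -0.11, 0.17 and -0.05 on the young arrays. On replicate 3, 10 of the 12 lay above all young arrays, as 41.9% of all genes did. S100a9, a neutrophil calgranulin, read 8.26, 8.49 and 11.28 in old PH 38 h and 8.83, 9.59 and 8.66 in young PH 24 h. The mean level of the 12 markers ran from 7.68 to 8.52 in old PH 38 h and from 7.68 to 7.96 in young PH 24 h. None of them passed, and their part in the values of replicate 3 was not tested. On 20 stellate cell and matrix markers young replicate 1 stood at 0.6. None of the 14 T and NK cell, 10 B and plasma cell, 19 endothelial, 20 stellate, 12 bile duct, 8 adipose, 5 red cell and 7 mesothelial markers passed. Ighm, the immunoglobulin heavy chain of IgM, read 10.85, 10.71 and 9.91 in old livers and 8.94, 8.55 and 8.73 in young livers (1.75 ± 0.57, adjusted p = 0.117), with groups apart. In untreated livers Ighm already differed by 2.08 ± 0.57 (limma adjusted p = 0.149).

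Of 17 Kupffer cell and macrophage markers, Cd163, the scavenger receptor for haemoglobin complexes, fell and none rose (median -0.15). Cd163 read 7.49, 7.39 and 6.95 in old PH 38 h, against 8.46, 8.9 and 8.21 in young PH 24 h (-1.24 ± 0.24, limma adjusted p = 0.0117), with groups well apart. In untreated livers Cd163 averaged 7.35 ± 0.20 in old and 8.98 ± 0.05 in young (SD, n = 3 each; -1.62 ± 0.24, adjusted p = 0.00105 in limma). The list as a whole had a median of 0.89 in untreated livers, where Cd163 was its only call.

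Untreated livers ask which of these differences stand before surgery, with no array in common with the PH comparison. Between untreated old and untreated young livers 43 genes passed (0.236%), 32 higher (0.176%) and 11 lower (0.0605%). Genes called in both comparisons were 7, which is 2.75% of the calls after PH and 16.3% of the calls before it, and all 7 had the same direction. They are Nebl, Wfdc2, Dmrta1, Crygn, Gm7969 and Rexo4, higher in old, and Cd163, lower in old. The 43 calls became 81 without untreated old replicate 1, 22 without untreated old replicate 2 and 25 without untreated young replicate 3. Wfdc2 averaged 9.89 ± 0.33 in untreated old livers and 8.27 ± 0.04 in untreated young livers (SD, n = 3 each; 1.62 ± 0.16, limma adjusted p = 1.93e-06).

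Dmrta1, a DMRT family transcription factor, read 5.81, 6.3 and 5.4 in old PH 38 h and 5.09, 4.77 and 5.04 in young PH 24 h (0.87 ± 0.22, adjusted p = 0.0437), and its difference was 1.85 ± 0.22 before surgery. Nebl differed by 1.44 ± 0.22 before surgery, the crystallin gene Crygn by 0.87 ± 0.16 and the gene model Gm7969 by 1.25 ± 0.17. After PH, Crygn rose by 0.84 ± 0.16 and Gm7969 by 0.79 ± 0.17. Of the 83 genes higher after PH, 57 had a positive difference in untreated livers (68.7%, and 45.9% of all genes positive after PH). Of the 172 lower genes, 119 had a negative one (69.2%, and 60.2% of all genes negative after PH). The median difference before surgery was 0.06 for the higher and -0.09 for the lower genes. Some calls after PH had a sizeable difference of the same sign before surgery that did not pass there. It was 1.40 ± 0.31 for Noct, 0.94 ± 0.27 for Ifi27l2b and -1.17 ± 0.31 for Slc39a4. In sham livers 57 of the 83 (68.7%) and 101 of the 172 (58.7%) kept their sign, against 50.5% and 52.3% of all genes.

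**Figure D4:**
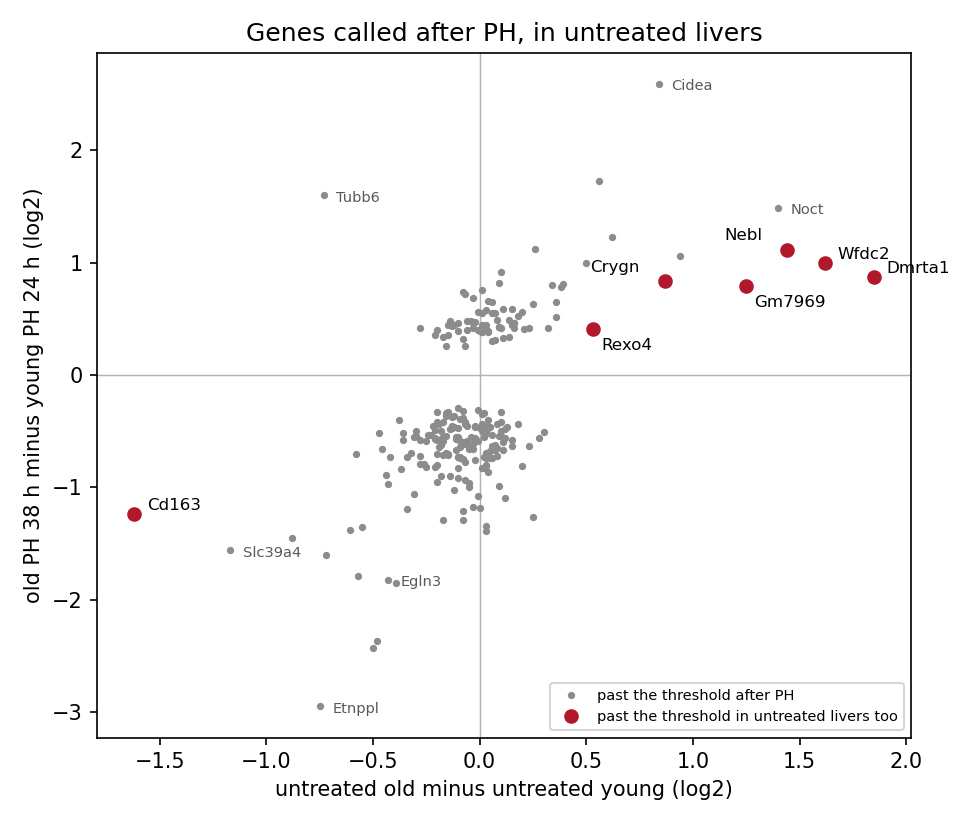
Each point is 1 of the 255 genes called between old PH 38 h and young PH 24 h, with its difference after PH on the vertical axis and its difference between untreated old and untreated young livers on the horizontal axis, both log2. The 7 red points passed in both comparisons, and each has the same direction on both axes.

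A separate question is whether the change from untreated liver differed between old livers at 38 h and young livers at 24 h, tested as an interaction in limma. Of all genes 9 passed (0.0495%), 1 higher (0.0055%) and 8 lower (0.044%), and both sides use the PH arrays above. Fgl1, a fibrinogen-like protein secreted by the liver, averaged 13.86 in old PH 38 h and 14 in young PH 24 h, and 13.52 ± 0.36 in untreated old and 12.12 ± 0.24 in untreated young livers (SD, n = 3 each; interaction -1.53 ± 0.26, adjusted p = 0.019). After PH it changed by 0.34 in old livers, which did not pass, and by 1.87 in young livers, which did. Cdh19, a cadherin, averaged 5.6 in old PH 38 h and 5.38 in young PH 24 h, and 7.06 ± 0.37 in untreated old and 5.42 ± 0.11 in untreated young livers (interaction -1.42 ± 0.22, adjusted p = 0.019). These means lay below 8.05, the median of all gene values. Map3k5, the stress kinase ASK1, fell after PH in both ages, with -0.47 in old livers and -1.36 in young livers, an interaction of 0.90 ± 0.16 (adjusted p = 0.0241). Before surgery Map3k5 averaged 9.65 ± 0.07 in old and 10.39 ± 0.15 in young livers (SD, n = 3 each). For these 3 genes the groups differed in untreated livers and none passed after PH.

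Gtf2e1, a subunit of the general transcription factor TFIIE, and Zfp931, a zinc finger protein, showed the other pattern. Gtf2e1 read 8.36, 8.78 and 8.64 in old PH 38 h, against 9.89, 9.96 and 9.19 in young PH 24 h (-1.09 ± 0.15, limma adjusted p = 0.000481), and differed by 0.12 ± 0.15 in untreated livers (interaction -1.20 ± 0.21, adjusted p = 0.019). Its other probe set gave 0.15 after PH. Zfp931 read 7.06, 7.36 and 6.97 in old livers and 7.8, 8.03 and 8.14 in young livers (-0.86 ± 0.11, adjusted p = 0.000481), and differed by 0.04 ± 0.11 in untreated livers (interaction -0.90 ± 0.16, adjusted p = 0.0225). The groups of both genes lay apart after PH. Tmcc1, a membrane protein of the endoplasmic reticulum, had an interaction of -0.95 ± 0.15 (adjusted p = 0.019). With sham livers in place of untreated ones, Gtf2e1 and Zfp931 kept their calls among 10 genes that passed (0.055%). Cdh19 and Tmcc1 lost theirs, and Fgl1 and Map3k5 turned to 0.05 and -0.08. Without old PH 38 h replicate 3, or without young PH 24 h replicate 2, no interaction passed, with 1814 and 1859 genes at an unadjusted p under 0.05, and in the fit on the 12 arrays of the 4 groups alone none passed, with 1514 at that level.

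Against young livers of the same hour the number of calls was 1345 for old PH 24 h minus young PH 24 h (7.39%, with 4.52% higher and 2.87% lower) and 366 for old PH 38 h minus young PH 38 h (2.01%, with 0.506% higher and 1.51% lower), set beside the 255 here. With 1 array left out these counts ran from 169 to 3786 and from 49 to 678, and in fits on their own 6 arrays none passed, with 3086 and 1366 genes at an unadjusted p under 0.05. The arrays are shared, so the values of single genes are given side by side only. Etnppl stood at -2.95 between old 38 h and young 24 h, at -3.75 between old and young at 24 h and at -1.93 at 38 h. Cidea stood at 2.59, 2.08 and 2.51 in the same order, Egln3 at -1.82, -2.17 and -0.69, and Wfdc2 at 1.00, 1.05 and 1.11. Onecut1 stood at -1.45, -1.60 and -0.10, and Tubb6 at 1.60, 1.91 and -0.14. Of these genes Cidea and Wfdc2 passed in all 3 comparisons.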

How the data were processed

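Liver RNA was measured on 35 Affymetrix moe430_2 arrays. The values are the authors' deposited log2 signals, made by RMA per the submitters' processing notes. No detection calls were used. The sources used here do not give the RMA version or say which arrays were normalized as one set. Of 45101 probe sets, 34945 had 1 gene symbol, 932 had several, 9160 were unlisted and 64 were controls. One probe set, that of highest mean signal, stood for each of 18193 genes, of which 9010 had more than 1.

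Group means of all 14 groups were fitted with limma 3.58.1 (R 4.3.3), with lmFit, eBayes (21 residual and 3.29 prior degrees of freedom) and Benjamini-Hochberg adjustment over all genes. Errors are the fit's SE unless marked SD. The fit was tested on simulated data in which a gene had the same spread on all arrays. No simulated array stood apart, so this test does not cover old PH 38 h replicate 3. Precision is limited by how many arrays a group holds, and there is no read depth.

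Genes were named by rule: the 10 largest rises and falls that passed with groups apart, the 5 largest response differences and the 5 largest shared with untreated livers in each direction, up to 4 passing members of a list (else its 2 brightest), and a fixed panel. Others are marked. The members and lists were chosen with earlier results of these data known. Lists are described by counts and medians, with no test. Replicate numbers did not pair the samples (correlations of deviations between old PH 38 h and young PH 24 h arrays -0.03, 0.06 and -0.02). Alternatives covered the probe set of a gene, every probe set tested, scaling, a filter on dim genes, array weights, the replicate block, the variance prior, which arrays were fitted, sham controls and each array left out.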

Additional observations from a re-analysis of the deposited data

Results flagged for a closer look

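The response to PH, each age against its own untreated livers, differed between old livers at 38 h and young livers at 24 h for 9 genes by an interaction term in limma, and such a tested difference is the reason each is listed. The log2 differences of the responses, old minus young, were -1.53 for Fgl1, -1.42 for Cdh19, -1.2 for Gtf2e1, -0.95 for Tmcc1, -0.9 for Zfp931 and 0.9 for Map3k5. The others were Zfp326 (-0.80), Tmem123 (-0.73) and Fam136a (-0.52), named after their values were seen. No group had over 3 arrays, so no outlier rule was applied to single samples. Old PH 38 h replicate 3 was described as standing apart by its correlations only.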

How the results depend on the processing

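Between old PH 38 h and young PH 24 h, 255 genes passed. The count was 442 with the median over all probe sets of a gene, 443 with array weights (a fit that stopped before its convergence tolerance), 1100 of 34945 when every probe set was tested, 34 at 2-fold or more, and 33 to 811 with 1 array left out. In the fit on the 6 arrays alone limma called 0 genes, with 1611 at an unadjusted p under 0.05 and a smallest adjusted p of 0.464. The other alternatives gave 223 to 267, and the replicate block 190. Replicate numbers do not pair the samples, and with the block the counts were 38 for untreated livers, 7 for the response, 5 for sham livers, 1167 at 24 h and 319 at 38 h. The 43 calls between untreated livers were 27 with the filter on dim genes, 143 with array weights and 22 to 81 with 1 array left out. The 9 response differences were 0 in the fit on their own arrays (1514 at an unadjusted p under 0.05), 19 over every probe set and 0 to 40 with 1 array left out. With sham in place of untreated livers Fgl1 stood at 0.05 and Map3k5 at -0.08, and Cdh19 and Tmcc1 did not pass. The 7 calls between sham livers were 2 with the dim filter, 13 after repeated quantile normalization, 415 with array weights, 13 on their own arrays, 20 over every probe set and 0 to 42 with 1 array left out. At the same hour of 24 h the 1345 calls were 8583 with array weights, 0 on their own arrays (3086 at an unadjusted p under 0.05) and 169 to 3786 with 1 array left out. At 38 h the 366 calls were 0 on their own arrays (1366 at an unadjusted p under 0.05) and 49 to 678. Leaving out old PH 38 h replicate 3 and old PH 24 h replicate 1 together, chosen after seeing the data, gave 372 calls, and 124 for untreated livers, 80 for sham livers and 143 at 38 h. The cause of these changes was not tested. The number of arrays a group holds limits the precision.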

Other observations

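The single calls below lie outside the lists and were named after their values were seen, so no statement on a group is made from them. Each gene below had an adjusted p under 0.05 in limma, and values are log2 differences. None of them was among the 19 calls kept with each of the 6 arrays left out in turn. Opa1 and Mfn2, GTPases that fuse mitochondrial membranes, fell by 0.50 and 0.55 in old PH 38 h against young PH 24 h. Fh1, the fumarase of the tricarboxylic acid cycle, fell by 0.60, Lrpprc, which steadies mitochondrial messenger RNA, by 0.57, and Tfb2m, a mitochondrial transcription factor, by 0.44. The ornithine carrier Slc25a15, which feeds the urea cycle, fell by 0.79. Among the higher calls, the growth kinase gene Mtor rose by 0.48 and Apex1, an endonuclease of base excision repair, by 0.42. Fabp2, the intestinal fatty acid binding protein, rose by 0.92, and Mboat7, an acyltransferase of phosphatidylinositol remodelling, by 0.48.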
